A study of Bos taurus with 5 samples.

Results

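Autophagy genes were followed in early cattle embryos (Bos taurus) from 2 groups of sires, high-performing and low-performing bulls. The set holds 42 genes of the autophagy machinery, chosen by name from the 27607 genes of the deposited table, and each name matched 1 gene. They were arranged by role into 6 initiation genes, 6 nucleation genes, 5 genes of lipid transfer and phosphoinositide binding, 10 conjugation genes, 5 ATG8 proteins, 5 receptors and 5 genes of fusion, the lysosome and its regulator TFEB. Embryos were grown in vitro, and RNA was sequenced from 5 pools of 100 embryos, 3 sired by high-performing and 2 by low-performing bulls. Every pool is labelled 4-cell, and the design text gives 2 to 4 cells. The labels do not give the number of sires, and they name recombinant Wnt5A for all 5 pools alike. Whether the pools of 1 group had different sires or cultures is not stated, so each p-value rests on pool-to-pool spread that may be only technical.

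Autophagy encloses cytoplasm in a double membrane, the autophagosome, and delivers it to the lysosome for breakdown. The ULK kinase complex starts the process, a lipid kinase complex marks the site, lipid carriers enlarge the membrane, and a pair of ubiquitin-like conjugation systems attach ATG8 proteins to it. Receptors bind both cargo and ATG8 proteins, and membrane fusion proteins join the finished vesicle to the lysosome. In the mouse, autophagy is switched on after fertilisation and is needed for development before implantation.

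The number of reads assigned to genes, recovered from the RPKM values, ranged from 67248924 to 113100809 per pool. RPKM divides a gene's reads by its length in kilobases and by the pool's total in units of 1000000 reads. For a gene of 1 kb, 3 reads equal 0.027 to 0.045 RPKM, a floor that allows for counting error alone. The 8 oocyte and cleavage embryo markers were all at 66.05 RPKM or more in every pool, and summed to 4978 to 5702 RPKM in the high-performing and 6060 and 6347 RPKM in the low-performing pools. Of 10 cumulus and granulosa markers, CYP19A1, FSHR, FOXL2 and AMH stayed at or under 0.434 RPKM. Another 5, INHBA, PTX3, HAS2, STAR and FST, had at least 1 RPKM in 2 or more pools. TNFAIP6, which fell under the filter described below, had 0.144, 0.641 and 0.194 RPKM in the high-performing and 0.298 and 1.054 RPKM in the low-performing pools. Its groups overlapped. The list summed to 179 to 204 RPKM in the high-performing and 180 to 186 RPKM in the low-performing pools, most of it from STAR. HAS2 had 22.9, 27.0 and 29.0 RPKM in the high-performing and 22.4 and 15.4 RPKM in the low-performing pools. For HAS2 and INHBA, both low-performing pools lay below all others, as for 29.3% of all genes tested. Their differences were -0.47 and -0.37 on the log2(RPKM + 1) scale. Of the 5 cumulus and granulosa markers tested, 3 lay below 0 and 2 above. In the authors' deposited comparison, the untested TNFAIP6 and AMH were higher in the low-performing pools. The untested CYP19A1, FSHR and FOXL2 were lower there, and none of these had an FDR under 0.05. Of 7 sperm markers, PRM2 and TNP1 were at 0 in all pools. The list summed to 9.27 to 10.7 RPKM in the high-performing and to 15.3 and 27.8 RPKM in the low-performing pools. Only ACRV1 and SPA17 had at least 1 RPKM in 2 or more pools, with differences of 0.97 and 0.93 on the same scale. For both, the low-performing pools lay above all others, as for 29.4% of all genes tested. With the trend over gene length removed, as described below, their differences were 0.67 and 0.47. PRM1, ODF1 and AKAP4 were not tested. In the authors' deposited comparison their log2 fold changes were -1.76, 0.86 and -0.38. The part of these other cell types in the results below was not tested. Low-performing pool 2 stood apart from the rest, with correlations of 0.929 to 0.976 to the other pools across genes on the log2(RPKM + 1) scale, against 0.977 or more among the other 4. Among those 4, low-performing pool 1 had the lowest values, 0.977 with high-performing pool 2 and 0.984 with high-performing pool 3. High-performing pool 1 correlated at 0.9933 with low-performing pool 1, and at 0.9894 and 0.9923 with high-performing pools 2 and 3.

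Autophagy mRNAs spanned a wide range of levels, and most were well detected. Averaged over the 5 pools, 4 members were above 100 RPKM, 26 between 10 and 100, 10 between 1 and 10, and 2 under 1 RPKM. WIPI2, which binds the phosphoinositide on the growing membrane and recruits the conjugation machinery, was highest at 161 to 196 RPKM. The receptor TAX1BP1 followed at 155 to 182 RPKM, and the ranges of these 2 mRNAs overlapped. OPTN, another receptor, was next at 110 to 119 RPKM, and GABARAPL2, an ATG8 protein, followed at 79.4 to 142 RPKM. At the other end were ATG10, the E2-like enzyme that joins ATG12 to ATG5, at 0.61 to 0.90 RPKM, and WIPI1 at 0.40 to 0.68 RPKM. Only 5 of the 41 neighbours in this order had pools that did not overlap, so the exact order is mostly not resolved.

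**Figure D1:**
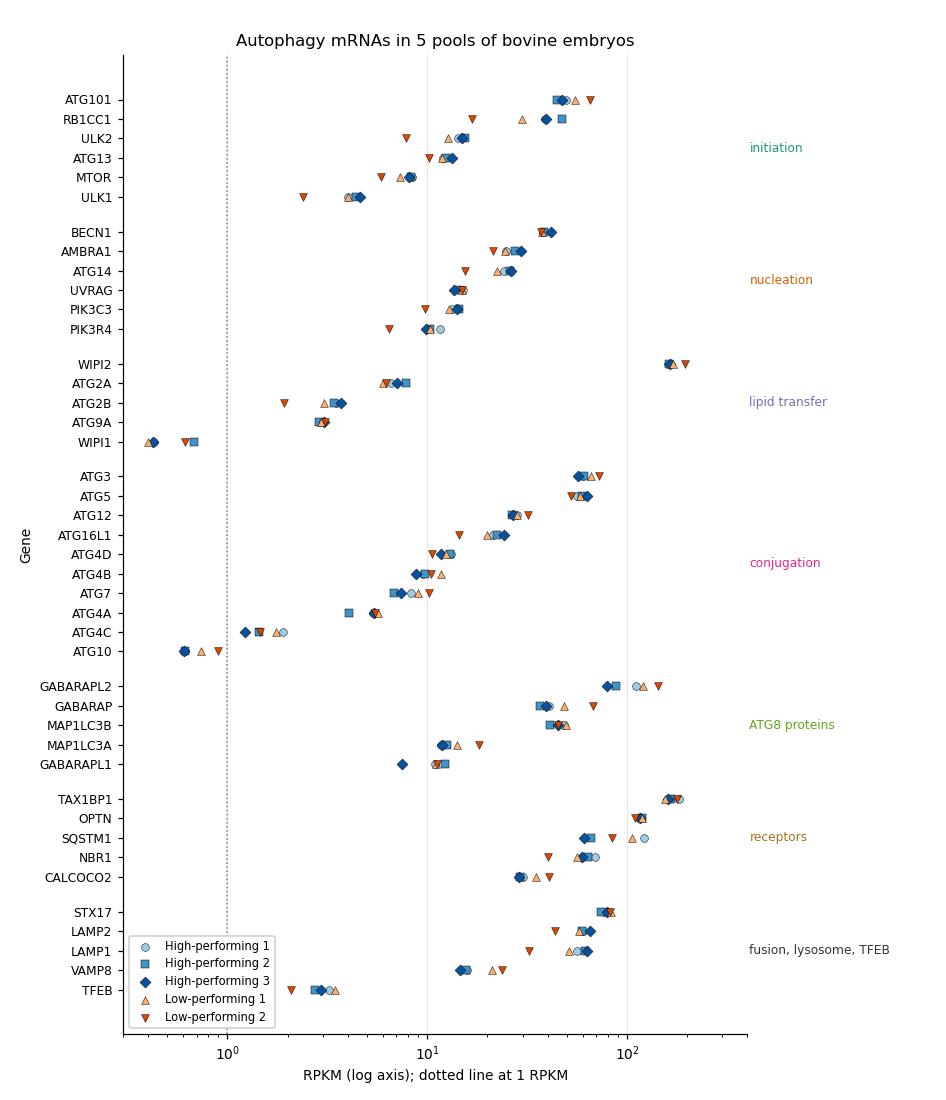
RPKM on a log axis for the 42 autophagy genes, grouped by role, with 1 symbol per embryo pool (blue for high-performing, orange for low-performing). Levels run from 0.40 RPKM for WIPI1 to 196 RPKM for WIPI2, and for many genes low-performing pool 2 lies at 1 end of the 5 values.

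No autophagy gene passed the comparison of the sire groups. The test was limma on log2(RPKM + 1), run on 12448 genes with at least 1 RPKM in 2 or more pools and adjusted by the Benjamini-Hochberg method. All differences below are low-performing minus high-performing on that scale, which understates changes of low values. WIPI1 and ATG10 fell under the filter, and 40 members were tested. None of the 40 had an adjusted p under 0.05, and neither had any gene in the table (0%), with a smallest adjusted p of 0.0829. At an unadjusted p under 0.05, 6 members were higher in the low-performing pools, where 19.0% of all genes were, and 7 were lower, where 15.9% of all genes were. The pools of the groups did not overlap for 13 members that were higher and 14 that were lower, against 29.4% and 29.3% of all genes, so these counts lie near the background. The median difference was -0.03 over the members and -0.03 over all genes tested. Without low-performing pool 1, which leaves pool 2 alone in its group, the median difference was -0.06 over the members and -0.07 over all genes. Fewer cells of a type and less RNA per cell cannot be told apart in such pools.

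The deposited table holds a comparison of the authors' own, with a likelihood ratio per gene. In the authors' deposited table, GABARAP is the single member higher in the low-performing pools at an FDR under 0.05 (FDR 0.0439, log2 fold change 0.57), and RB1CC1 the single member lower (FDR 0.0248, log2 fold change -0.84). Of the 12448 genes, 11.0% are higher and 5.07% lower at that FDR in the authors' deposited table. The sources used here do not give their model.

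**Figure D2:**
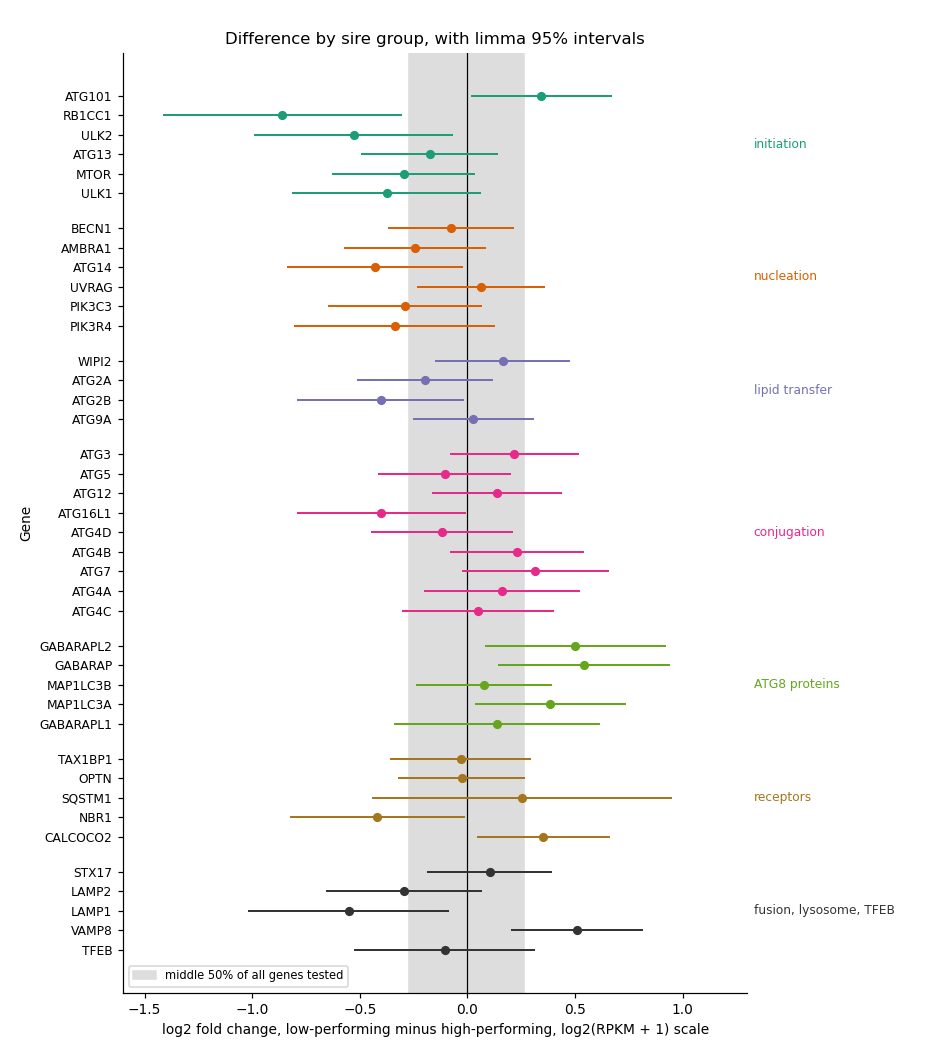
Log2 fold change, low-performing minus high-performing, for the 40 autophagy genes tested; points are limma estimates, bars 95% intervals, and the grey band the middle 50% of all genes tested. RB1CC1 lies lowest at -0.86, GABARAP highest at 0.54, and most initiation and nucleation genes lie left of 0 while all 5 ATG8 genes lie right of it.

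Of the 6 initiation genes 5 lay below 0, with a median of -0.33. RB1CC1 (FIP200), the scaffold of the ULK complex, encoded on chromosome 14 (ARS-UCD1.2) between 21493003 and 21523152, had 39.0, 47.2 and 39.3 RPKM in high-performing pools 1 to 3 and 30.0 and 16.8 RPKM in low-performing pools 1 and 2. Both low-performing pools lay below every high-performing pool, and pool 2 far more so. Its difference was -0.86 ± 0.24 (SE; limma adjusted p = 0.0832), the largest among the members in either direction. ULK2, a kinase of the complex, had 14.2, 15.5 and 14.9 RPKM against 12.7 and 7.85 RPKM, again without overlap, a difference of -0.53 ± 0.20 (SE). Its paralog ULK1 was the scarcer kinase at 2.38 to 4.62 RPKM, and low-performing pool 1 and high-performing pool 1 both had 4.02 RPKM, so the groups overlapped. ULK2 exceeded ULK1 in every pool, by 3.16 to 3.54 times.

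ATG101, a small partner of ATG13, was the initiation gene on the other side. It had 49.6, 44.5 and 47.1 RPKM in the high-performing and 54.9 and 65.4 RPKM in the low-performing pools, with both low-performing pools above the rest. The difference was 0.34 ± 0.14 (SE; limma adjusted p = 0.126), or 0.16 with the trend over gene length removed, as described below. ATG13 itself, which ties the kinase to RB1CC1, had 12.0 to 13.3 RPKM against 10.3 and 11.8 RPKM. MTOR, the kinase that holds the complex inactive when nutrients are plentiful, had 8.07 to 8.38 RPKM against 7.31 and 5.85 RPKM. Neither difference reached an unadjusted p of 0.05 in limma, although the groups did not overlap for either gene.

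The nucleation genes make the complex of the lipid kinase PIK3C3 (VPS34), and 5 of the 6 lay below 0, with a median of -0.27. BECN1, the core regulatory subunit, was the most abundant at 37.8, 38.6 and 41.4 RPKM against 37.4 and 37.0 RPKM. Its difference was -0.08 ± 0.12 (SE; limma 95% interval -0.36 to 0.21). ATG14, the subunit that directs the complex to autophagy, had 24.2, 26.1 and 26.3 RPKM against 22.5 and 15.5 RPKM, a difference of -0.43 ± 0.17 (SE; limma adjusted p = 0.127). UVRAG, which takes the place of ATG14 in a complex acting on endosomes, had 13.6 to 15.1 RPKM in the high-performing and 14.9 and 15.0 RPKM in the low-performing pools, and the groups overlapped. The kinase PIK3C3 had 13.3 to 14.4 RPKM against 12.8 and 9.75 RPKM. PIK3R4, its adaptor kinase, had 9.83 to 11.6 RPKM against 10.3 and 6.41 RPKM, with low-performing pool 1 inside the high-performing range. AMBRA1, which links this complex to ubiquitin ligases and the cytoskeleton, had 24.8 to 29.3 RPKM against 24.4 and 21.3 RPKM.

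Among the lipid carriers and their partners, only ATG2B reached an unadjusted p under 0.05. ATG2A and ATG2B carry lipids from other membranes into the growing one. ATG2B had 3.50, 3.40 and 3.69 RPKM against 3.03 and 1.91 RPKM, a difference of -0.40 ± 0.16 (SE; limma adjusted p = 0.13), with both low-performing pools below the others. ATG2A had 6.61 to 7.80 RPKM against 6.01 and 6.22 RPKM. ATG9A, the lipid scramblase of the vesicles that seed the membrane, was steady at 2.88 to 3.08 RPKM over all 5 pools. WIPI2 had 161, 162 and 165 RPKM against 170 and 196 RPKM, with a difference of 0.16 ± 0.13 (SE), which was -0.05 under quantile normalization. WIPI2 exceeded WIPI1 by 239 to 422 times. WIPI1 shares 338 of its 1839 bases with ARSG on the opposite strand, which had 1.32 to 2.28 RPKM. The part of ARSG in the WIPI1 values, and so in this ratio, was not tested.

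The conjugation genes lay near 0, at a median of 0.14 over the 9 tested, with 6 above and 3 below. ATG7, the E1-like enzyme that activates both ATG12 and the ATG8 proteins, had 8.32, 6.80 and 7.43 RPKM against 8.94 and 10.2 RPKM, a difference of 0.32 ± 0.14 (SE; limma adjusted p = 0.159). Both low-performing pools were above the others. ATG3, the E2-like enzyme for ATG8 proteins, had 56.8 to 61.04 RPKM against 65.9 and 72.6 RPKM. The mRNAs of the complex that acts as E3 stood on both sides of 0. ATG16L1, which anchors that complex to the membrane, had 21.3, 22.5 and 24.3 RPKM against 19.9 and 14.3 RPKM, a difference of -0.40 ± 0.17 (SE; limma adjusted p = 0.135). ATG5, at 56.4 to 63.2 RPKM against 58.4 and 52.6 RPKM, overlapped between groups, and ATG12, at 26.5 to 28.1 RPKM against 28.2 and 31.8 RPKM, did not. ATG10, under the filter, had 0.61 RPKM in all 3 high-performing pools and 0.73 and 0.90 RPKM in the low-performing pools.

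ATG4 proteases trim new ATG8 proteins and later release them from membranes. ATG4D and ATG4B were the main mRNAs of the 4, with mean shares of their summed RPKM of 44.4% ± 1.55 (SD, n = 3) and 32.9% ± 1.40 in the high-performing pools. In the low-performing pools the shares were 38.6% ± 1.17 (SD, n = 2) and 37.3% ± 0.28. The shares did not overlap between the groups for either protease, but parts of 1 sum are not separate observations. The RPKM of ATG4D overlapped between the groups. Of all genes tested, 58.7% did not overlap in RPKM. ATG4B had 9.47, 9.72 and 8.77 RPKM against 11.7 and 10.5 RPKM, and ATG4D had 13.1, 13.01 and 11.7 RPKM against 12.5 and 10.6 RPKM. ATG4A, at 4.04 to 5.39 RPKM against 5.67 and 5.47 RPKM, shares 422 of its 2625 bases with PSMD10 on the opposite strand, and strand-aware counting is not stated. PSMD10 had 9.58 to 13.9 RPKM against 17.4 and 23.3 RPKM, and its part in the ATG4A values was not tested. ATG4C was lowest, at 1.23 to 1.90 RPKM. Shared bases of this kind were also found for ATG4D, GABARAPL2, SQSTM1, LAMP1, ATG14, ATG16L1, ATG2B and WIPI1, from 22 bases for ATG16L1 to 341 for ATG4D, which leaves their values less certain.

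ATG8 mRNAs were the 1 role in which every tested member lay above 0, with a median difference of 0.38. These small ubiquitin-like proteins are joined to the lipid of the autophagosome membrane. GABARAP, on chromosome 19 from 26954142 to 26956071, had 40.6, 36.6 and 39.3 RPKM in the high-performing and 48.1 and 67.6 RPKM in the low-performing pools, a difference of 0.54 ± 0.17 (SE; limma adjusted p = 0.0892). Both low-performing pools were above all others, pool 2 the most. GABARAPL2 (GATE-16) had 111, 88.4 and 79.4 RPKM against 120 and 142 RPKM, a difference of 0.50 ± 0.18 (SE; limma adjusted p = 0.104). MAP1LC3A had 11.7, 12.6 and 11.9 RPKM against 14.2 and 18.2 RPKM, a difference of 0.38 ± 0.15 (SE; limma adjusted p = 0.118). MAP1LC3B, the LC3 commonly used as a marker of autophagosomes, overlapped between the groups, at 41.2 to 48.1 RPKM against 49.4 and 45.3 RPKM. GABARAPL1, at 7.48 to 12.3 RPKM against 11.1 and 11.2 RPKM, also overlapped.

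The family was dominated by the GABARAP branch. GABARAPL2 alone made 43.3% to 50.02% of the summed ATG8 RPKM in the 5 pools, and GABARAP 18.2% to 23.8%. MAP1LC3B held 21.5% to 24.7% in the high-performing pools and 20.3% and 15.9% in the low-performing pools, without overlap. As given above, its RPKM overlapped between the groups. The 5 mRNAs summed to 223, 191 and 183 RPKM in the high-performing and 243 and 284 RPKM in the low-performing pools. MAP1LC3C, an ATG8 gene outside the set, is not in these sums and shares. It had 2.13, 2.68 and 0.75 RPKM against 0.88 and 4.81 RPKM, and its groups overlapped. The ratio of GABARAPL2 to GABARAPL1 was 7.20 to 10.6 in the high-performing and 10.9 and 12.7 in the low-performing pools. The ATG8 mRNAs are short, and the median difference was 0.11 when the trend over gene length was removed, as described below.

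**Figure D3:**
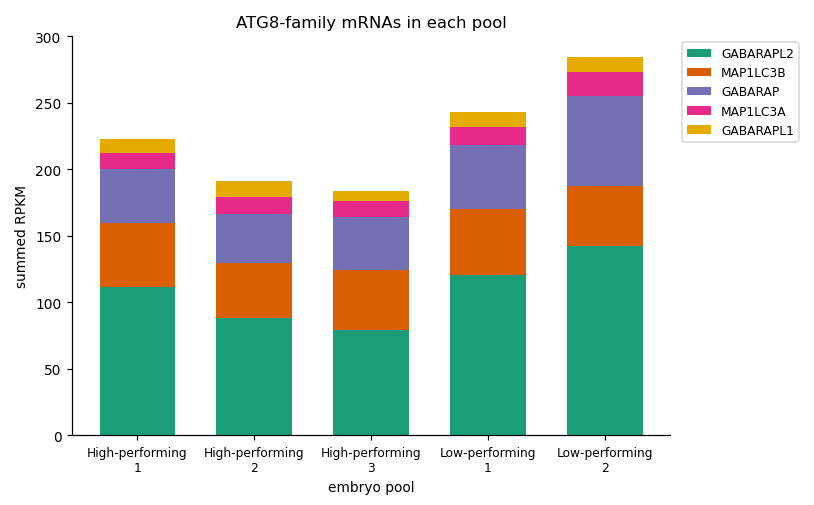
Stacked RPKM of the 5 ATG8-family mRNAs in each embryo pool. The bars sum to 183 to 223 RPKM in the high-performing and 243 and 284 RPKM in the low-performing pools, and GABARAPL2 makes the largest segment in each.

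Receptors were the most abundant role, summing to 426 to 519 RPKM per pool. TAX1BP1 and OPTN, which bring ubiquitin-tagged cargo to ATG8 proteins, had differences of -0.03 ± 0.14 (SE) and -0.03 ± 0.12 (SE), and their groups overlapped. SQSTM1 (p62), which gathers ubiquitinated proteins and is itself degraded by autophagy, had 122, 66.3 and 60.7 RPKM in the high-performing and 106 and 84.1 RPKM in the low-performing pools. High-performing pool 1 was the highest of all 5 for this gene, and the groups overlapped. The SQSTM1 difference was 0.25 ± 0.30 (SE; limma adjusted p = 0.555), and 0.56 without high-performing pool 1. NBR1, a related receptor, had 69.5, 63.9 and 59.6 RPKM against 56.4 and 40.4 RPKM, a difference of -0.42 ± 0.17 (SE; limma adjusted p = 0.131). CALCOCO2 (NDP52), known for bringing bacteria and mitochondria to autophagosomes, had 30.0, 29.1 and 28.9 RPKM against 34.9 and 40.7 RPKM, a difference of 0.35 ± 0.13 (SE; limma adjusted p = 0.111). The groups did not overlap for these last 2 receptors, which stood on opposite sides.

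At the lysosome end, VAMP8 and LAMP1 lay on opposite sides of 0, and neither passed the test. VAMP8, the lysosomal SNARE that pairs with STX17 on the autophagosome, on chromosome 11 from 49427905 to 49431079, had 15.8, 15.7 and 14.7 RPKM against 21.1 and 23.5 RPKM. This gave 0.51 ± 0.13 (SE; limma adjusted p = 0.0829), or 0.04 with the length trend removed. STX17 had 73.8 to 79.8 RPKM against 83.5 and 81.8 RPKM. LAMP1, a heavily glycosylated lysosomal membrane protein, on chromosome 12 from 86593182 to 86605278, had 56.2, 61.6 and 62.7 RPKM against 51.0 and 32.4 RPKM, a difference of -0.55 ± 0.20 (SE; limma adjusted p = 0.106). LAMP2, its paralog, had 59.4 to 65.5 RPKM against 57.3 and 43.8 RPKM. TFEB, the transcription factor that drives lysosomal and autophagy genes, was low at 2.07 to 3.44 RPKM, with both extremes in the low-performing pools.

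Ratios within 8 paralog pairs, taken within each pool on the log2(RPKM + 1) scale, gave no difference past the test. In exact two-sided permutation tests over the 10 splits of the pools, the smallest p possible is 0.1. LAMP1/LAMP2 reached it, where the log2 ratio was -0.04 ± 0.08 (SD, n = 3) for high-performing pools, -0.29 ± 0.18 (SD, n = 2) for low-performing ones, with an adjusted p of 0.4 over the 8 pairs. ULK1/ULK2 and WIPI1/WIPI2 had p = 0.2 in the same exact test, and their groups did not overlap on this scale. As plain ratios, with no pseudocount added, both pairs overlapped between the groups, with exact p of 0.3 for ULK1/ULK2 and 0.8 for WIPI1/WIPI2. The other 5 pairs had p from 0.3 to 0.8 in the exact test on either scale, and of these only GABARAPL1/GABARAPL2 did not overlap. The difference of the plain log2 ratio LAMP1/LAMP2 was -0.26, again without overlap (exact p = 0.1).

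The differences of the members followed gene length, as those of all genes did. Across the 40 members, Pearson's r between log2 length and the difference was -0.73 and Spearman's rho -0.68, against -0.47 and -0.52 across all 12448 genes. Genes share their pools and are not independent replicates. All 3 members of up to 1000 bases, VAMP8, GABARAP and GABARAPL2, lay above 0 with a median of 0.51, where all genes of that length had 0.48. Of the 9 members of 4001 to 6000 bases 8 lay below 0, with a median of -0.34 against -0.26 for all genes of that length. The 5 longest, over 6000 bases, had a median of -0.30 against -0.32.

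**Figure D4:**
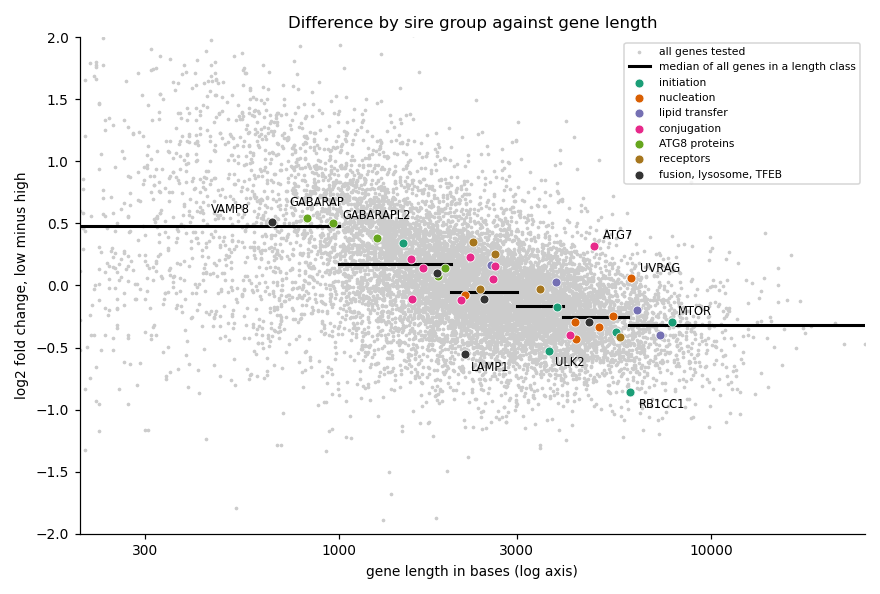
Log2 fold change (low-performing minus high-performing) against gene length on a log axis, with all genes tested in grey, medians of all genes in 6 length classes as black lines and autophagy genes in colour by role; 2 genes beyond the fold axis and 161 under 200 bases are not drawn. Short autophagy genes such as VAMP8 and GABARAP sit on the line of their length class, while RB1CC1, LAMP1 and ULK2 sit below theirs and ATG7 and UVRAG above.

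With the trend of each pool over length removed, the median of the initiation genes went from -0.33 to -0.04, that of the nucleation genes from -0.27 to -0.07 and that of the ATG8 proteins from 0.38 to 0.11. The difference of GABARAP was 0.11 and that of VAMP8 to 0.04. By contrast LAMP1 stayed at -0.55, and RB1CC1 and ULK2 stood at -0.56 and -0.35. CALCOCO2 was at 0.37, ATG7 at 0.56 and UVRAG at 0.36. These 6 were the members with an unadjusted p under 0.05 in that limma fit, 3 lower and 3 higher. Of all genes in that fit, 15.3% were lower and 15.3% higher at the same threshold, larger shares than among the 40 members. No gene passed adjustment there, and the smallest adjusted p of a member was 0.108.

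Low-performing pool 2 lay farther from the high-performing mean than pool 1 for 32 of the 40 members, against 83.8% of all genes tested. The median difference of the initiation genes was -0.12 without pool 2 and -0.55 without pool 1. That of the ATG8 proteins was 0.22 and 0.55, and that of the nucleation genes -0.09 and -0.40. The fusion, lysosome and TFEB role was at 0.12 without pool 2 and -0.37 without pool 1. Conjugation genes were at 0.13 and 0.14, receptors at 0.03 and 0.06, and lipid transfer genes at -0.08 and -0.06. The direction was thus the same with either low-performing pool for every role except fusion, lysosome and TFEB. With both low-performing pools the receptors were at -0.03.

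In the genome, 5 of the 40 members tested (12.5%) lie on chromosome 19, which carries 5.93% of the genes tested. They are ULK2, BECN1, GABARAP, NBR1 and CALCOCO2, and the untested WIPI1 lies there too. Of the 5 tested, the differences stood on both sides of 0, from -0.53 for ULK2 to 0.54 for GABARAP.

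Other genes of the pathway were read from the same fit, and none of them passed over all genes tested. Their counts at an unadjusted p under 0.05 are to be read against the 19.0% of all genes that were higher and the 15.9% that were lower. Of 20 other core autophagy genes tested, 4 were lower and 0 higher. The ones with the smallest p were TP53INP2, which carries LC3 out of the nucleus, at -0.47 ± 0.14 (SE), and RUBCN (Rubicon), an inhibitor of autophagosome maturation, at -0.41 ± 0.14 (SE). Of 14 other receptors and adaptors, 3 were higher and 1 lower, led by WDFY3 (ALFY), a large scaffold for protein aggregates, at -0.83 ± 0.23 (SE), and STBD1, a receptor for glycogen, at 0.38 ± 0.13 (SE). Of 15 tethering and fusion genes, 1 was higher, the SNARE VTI1B at 0.58 ± 0.16 (SE), and next came VPS39, of the HOPS tether, at -0.28 ± 0.14 (SE). With the length trend removed, TP53INP2 stood at -0.44, RUBCN at -0.20, WDFY3 at -0.42, STBD1 at 0.12, VTI1B at 0.35 and VPS39 at -0.04.

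Upstream of autophagy, 5 of 28 regulators of mTORC1, AMPK and the TFE factors were higher and 3 lower at an unadjusted p under 0.05, against 19.0% and 15.9% of all genes. The smallest p in that list belonged to subunits of the Ragulator complex, which holds mTORC1 regulators on the lysosome. LAMTOR2 had 11.6, 6.51 and 7.03 RPKM against 15.2 and 33.6 RPKM, a difference of 1.38 ± 0.35 (SE; limma adjusted p = 0.0829). LAMTOR5 had 52.0, 30.5 and 35.4 RPKM against 68.5 and 175 RPKM, a difference of 1.49 ± 0.39 (SE; limma adjusted p = 0.0829). The remaining subunits, chosen after their values were seen, stood at 0.32 for LAMTOR1, 0.41 for LAMTOR3 and 1.13 for LAMTOR4, and all 5 had both low-performing pools above the others, as 29.4% of all genes did. With the length trend removed LAMTOR2 stood at 1.15, LAMTOR5 at 1.013, LAMTOR4 at 0.65, LAMTOR3 at 0.21 and LAMTOR1 at 0.13. In the authors' deposited table LAMTOR2, LAMTOR4 and LAMTOR5 are at an FDR of 6.02e-05, 0.000927 and 4.80e-05, and LAMTOR3 and LAMTOR1 at 0.133 and 0.322, where 11.0% of all genes are higher at an FDR under 0.05.

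Downstream, 31 lysosomal genes had 5 higher and 4 lower at an unadjusted p under 0.05, against 19.0% and 15.9% of all genes. GUSB, the lysosomal enzyme beta-glucuronidase, had 31.6, 41.8 and 41.98 RPKM against 23.2 and 14.5 RPKM, a difference of -1.02 ± 0.22 (SE; limma adjusted p = 0.0829). CTSZ, a cathepsin protease, had 41.6, 32.0 and 35.5 RPKM against 51.4 and 76.0 RPKM, a difference of 0.77 ± 0.20 (SE). These differences were -0.98 and 0.76 with the length trend removed. Of 17 V-ATPase genes, which acidify the lysosome, 5 were higher and 2 lower against the same shares, led by ATP6V0E1 at 0.98 ± 0.22 (SE) and ATP6V1G1 at 0.58 ± 0.14 (SE), and these stood at 0.55 and 0.41 with the length trend removed.

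**Figure D5:**
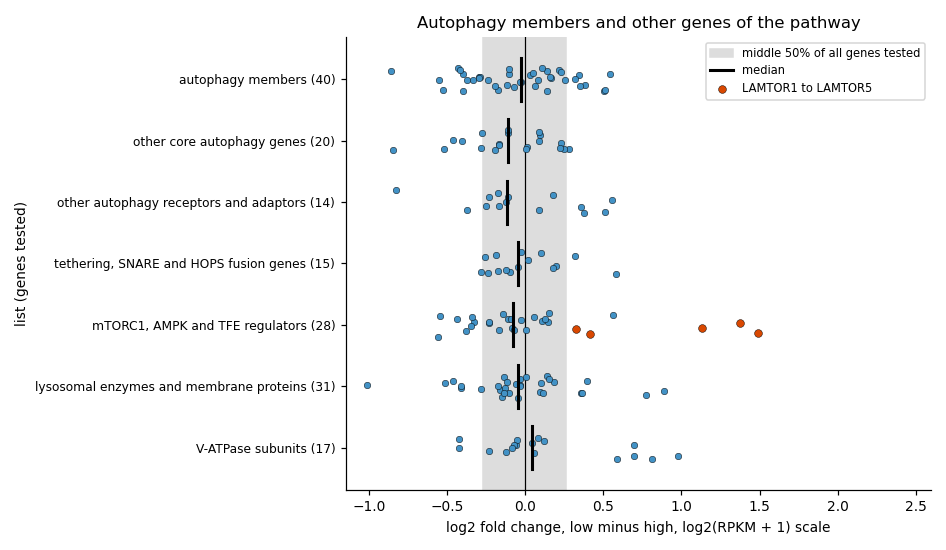
Log2 fold change (low-performing minus high-performing) of the tested autophagy members and of 6 other lists of the pathway, 1 point per gene, with the list median as a black bar and the middle 50% of all genes as a grey band. Medians lie between -0.12 and 0.04, and LAMTOR1 to LAMTOR5 (orange) reach from 0.32 to 1.49.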

How the data were processed

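RNA from pools of embryos was made into stranded mRNA libraries, per the labels' protocols. The submitters' processing notes name featureCounts, edgeR and FastQC, and ARS-UCD1.2 as the genome build. No aligner, version or setting for strand is given in the sources used here. The authors deposited RPKM per pool. RPKM times length in kilobases summed to 1000000 in each pool, and all values gave whole reads within a tolerance of 1e-06. Beside these the authors deposited their own test, as p-values and FDR, a score (the likelihood ratio), a log2 fold change and a log2 average CPM per gene.

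Sire groups were compared on log2(RPKM + 1) in limma 3.58.1, run in R 4.3.3 with the trend option, across all 12448 genes of at least 1 RPKM in 2 or more pools. Benjamini-Hochberg adjustment ran over all of them, with a two-sided threshold of 0.05. Named were all members and, of each other list, the 2 genes with the smallest p. MAP1LC3C was also named, as an ATG8 gene outside the set. Members, lists and alternatives were chosen with earlier results of these data known. Alternatives were pseudocounts of 0.1 and 0.5, other filters, quantile and median-ratio scaling, a loess trend over log2 length removed (span 0.5), other limma settings, limma voom on the recovered reads, the replicate number as a block and each pool left out. Leaving out pools in the count of groups that do not overlap, and plain ratios for the pairs, were chosen after seeing the data. The limma fit was run on simulated reads with known changes, with the same dispersion in every pool and no trend over length. That run does not cover an outlying pool or such a trend. Exons of 9 members share bases with a gene on the opposite strand. Figures used Python 3.11.15 and matplotlib 3.10.9.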

Additional observations from a re-analysis of the deposited data

How the results depend on the processing

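Of the 40 members tested, 27 were tested under all 17 alternatives with the same direction in each. ULK1, ATG9A, ATG2B, ATG4C and TFEB were not tested where a mean of at least 5 RPKM was asked for. Removing the length trend turned ATG13 (0.0134), MTOR (0.0558), AMBRA1 (0.0312), ATG2A (0.11), OPTN (0.00865) and TAX1BP1 (0.13), median-ratio scaling turned OPTN (0.00601) and TAX1BP1 (0.000663), and quantile normalization turned WIPI2 (-0.0459). Nothing in the labels ties pools of the same replicate number. Deviations from the group means correlated at -0.48 for number 1 and -0.26 for number 2, but in a group of 2 pools these deviations mirror each other, so they do not tell whether the numbers pair the pools. With the replicate block 833 genes (6.69% of all) and 1 member, RB1CC1, passed. At an unadjusted p under 0.05, 0 members were higher and 1 lower, where 11.4% and 7.45% of all genes were. ATG4C (-0.0367), GABARAPL1 (-0.0504) and ATG4A/ATG4B (0.0278) turned under the block. The counts at an unadjusted p under 0.05 were 3 higher and 3 lower with the length trend removed, where 15.3% and 15.3% of all genes were. With no filter 4 members were lower, where 8.37% of all genes were. With each pool left out in turn, 0 to 5436 genes and 0 to 18 members passed, 2 to 7 members were higher and 1 to 14 lower at an unadjusted p under 0.05, where 10.05% to 23.7% and 4.47% to 29.5% of all genes were. Groups did not overlap for 14 to 17 members above and 14 to 20 below, against 31.5% to 37.1% and 32.0% to 48.0% of all genes. Over the same fits the difference ran from -0.0367 to 0.152 for ATG4C, -0.0504 to 0.273 for GABARAPL1, -0.0821 to 0.0291 for OPTN, -0.128 to 0.0643 for TAX1BP1, -0.373 to 0.160 for TFEB, -0.0498 to 0.462 for ATG2A/ATG2B and -0.211 to 0.0278 for ATG4A/ATG4B. The cause of these shifts was not tested, except that the block leaves high-performing pool 3 without a partner and 1 residual degree of freedom.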
